A study of Eucalyptus grandis and Eucalyptus globulus with 10 samples.

Results

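Trees of 1 clone carry the same genotype, yet some of their wood-forming transcripts were measured at different levels. The 150 array features described here were those that differed most between 2 genetically identical trees in differentiating xylem, out of 21413 features measured on every array. They were chosen from the measured values. Among the 9978 features with a mean log2 intensity of 8 or more over the 8 xylem arrays, the difference between the 2 trees of a clone was taken without its sign, averaged over 4 clones, and the 150 largest averages were kept. The size of the xylem differences is therefore a description of the choice and no result. The direction of these differences comes from the same arrays and is also given without a test, while the leaf arrays, the differences between clones and species, and the clone left out in turn further on had no part in the choice of sizes.

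The RNA was taken from Eucalyptus grandis and Eucalyptus globulus planted in the field at 1 site and sampled at an age of 4 years. A ramet is 1 tree propagated from a parent tree, and the ramets of a clone share its genotype. The 5 groups were mature leaf blade without its central vein of E. grandis clone A, and scraped stem xylem of E. grandis clone A, E. grandis clone B, E. globulus clone A and E. globulus clone B. Each group held 2 ramets, ramet 1 and ramet 2, with no treatment and 1 array for each. The leaf RNA was from the same 2 trees as the xylem RNA of E. grandis clone A, whereas the labels do not say whether equal ramet numbers in different clones mark anything shared, such as a day of collection. Each clone stands for 1 genotype and each ramet for 1 tree. Tests of tissues and clones take their error from the spread between trees of a clone, the species test also from that between clones. Tree, sampling and array cannot be told apart within a ramet.

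Differentiating xylem is the layer just inside the cambium in which newly divided cells enlarge, lay down a thick cellulose, xylan and lignin wall and, in vessels and fibres, die. Its transcript levels are known to depend on season, time of day, water status, mechanical load and the depth of scraping, because cells at successive stages lie in thin layers. Ramets of a clone are used in forestry to hold genotype constant between trees. In bulk samples such as these, fewer cells of a type and less RNA per cell cannot be told apart. The files used here pair no feature with a gene, and 0 of the 21413 feature IDs matched the RefSeq gene table of E. grandis. The features are therefore named by ID, no pathway is assigned to them, and the tissue could not be checked with marker genes.

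Some properties of the arrays touch every value below. Median intensities were close, from 219 to 234 on the RMA scale, a summary of the brightness of the probes of a feature. The spread within an array, as the interquartile range of its log2 values, was higher for ramet 1 than for ramet 2 in all 4 xylem clones. It was 2.60 against 2.47 in E. grandis clone A, 2.57 against 2.41 in clone B, 2.84 against 2.47 in E. globulus clone A and 2.51 against 2.42 in clone B. In leaf the order was turned, 2.11 for ramet 1 and 2.62 for ramet 2. A table of the whole series was also deposited, and only 1 of its 10 columns held the values of the array assigned to the sample of that name. The other 9 held those of another sample, and all 10 columns stood in ascending order of the array number. Values were therefore taken from the files of single arrays, under the sample each is deposited with. With the columns as named only 13 of the 150 features would have been chosen, so every result below rests on the assignment of the files.

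Over the 4 clones the chosen features had a median of the mean absolute difference of 0.92 log2 units, with a lowest value of 0.82 and a highest of 2.61. All 9978 features of that brightness had a median of 0.37. The limit fell in a dense part of the ranking, since the last feature inside it had a value of 0.8245 and the first outside one of 0.8233. The features were not marked by brightness, with a median xylem level of 9.24 log2 units against 9.28 for the 9978. In 5 classes of equal size from dim to bright, the 9978 features contributed 26, 32, 34, 28 and 30 members. All 150 were read by the full 9 probe pairs.

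The xylem of E. globulus clone A contributed most to the choice. The median absolute difference of the 150 features was 1.40 log2 units there, 0.93 in E. globulus clone B, 0.66 in E. grandis clone A and 0.67 in E. grandis clone B. The same clone stood first over all 9978 features, with a median of 0.56 against 0.24 to 0.31 in the other clones. E. globulus clone A gave the largest of the 4 differences for 99 of the 150, or 66%. Clone B of that species did so for 38, and the E. grandis clones A and B for 6 and 7. Over the 9978 features these shares were 57.0%, 13.7%, 14.2% and 15.1% in the same order. A difference of at least 2-fold was found for 127 members in E. globulus clone A and 64 in clone B. In E. grandis it was found for 32 in clone A and 33 in clone B. Of the 9978 features, 13.2%, 2.20%, 1.68% and 1.33% reached 2-fold in the same order of clones. Such a difference was rarely met in every clone, with 61 members reaching 2-fold in 1 clone, 71 in 2, 15 in 3, 2 in all 4 and 1 in none. Of the 9978 features, 14.7% reached it in 1 clone, 1.61% in 2, 0.15% in 3, 0.02% in all 4 and 83.5% in none. In 22 of the 150, or 14.7%, the difference in 1 clone exceeded the sum of the other 3, against 31.1% of the 9978, and the choice by an average over 4 clones bears on this share. The 22 were 12 in E. globulus clone B, 9 in E. globulus clone A and 1 in E. grandis clone B.

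**Figure D1:**
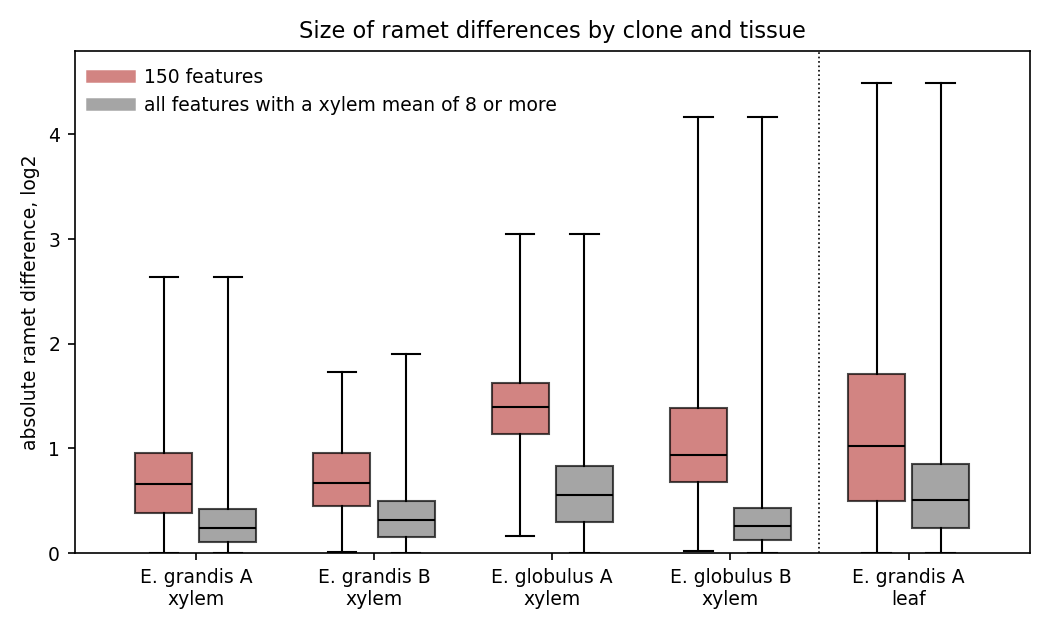
Absolute ramet difference in log2 units (vertical axis) for each xylem clone and for leaf, with the 150 features in red and all 9978 features with a xylem mean of 8 or more in grey. Boxes span the quartiles with the median as a line and whiskers reach the lowest and highest feature. The xylem sizes chose the red features and the leaf sizes did not. The red leaf median is 1.02 and the grey one 0.51.

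The feature with the largest mean difference, LYPTUS00S00001247, did not keep 1 direction. Its log2 value was 12.53 in ramet 1 and 9.90 in ramet 2 of E. grandis clone A, and 12.48 and 14.13 in clone B. In E. globulus it was 14.16 and 11.91 in clone A, and 12.37 and 8.45 in clone B. Ramet 1 was thus brighter in 3 clones and ramet 2 in E. grandis clone B, and on a linear scale the 8 xylem trees ran from 349 to 18302 intensity units. In leaf this feature was dim, at 6.45 and 6.08. LYPTUS00S00007686 had the same pattern of directions, from 8.41 and 7.01 in E. grandis clone A and 8.68 and 9.17 in clone B to 10.34 and 7.29 in E. globulus clone A and 8.20 and 6.54 in clone B. Its leaf values of 7.46 and 9.51 lay within the range of its xylem values.

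Most members were brighter in ramet 1 in every clone. Of the 150 features, 108 were higher in ramet 1 in all 4 xylem clones, where 25.2% of the 9978 features were. Only 4 were higher in ramet 2 in all 4 clones, where 16.8% of the 9978 were. Together 112 had 1 direction in all 4 clones, against a background of 42.0%. Another 30 were higher in ramet 1 in 3 of 4 clones, 3 in 2 and 5 in 1. By clone, ramet 1 was higher for 130 members in E. grandis clone A, 127 in clone B, 142 in E. globulus clone A and 134 in clone B. Over the 9978 features these shares were 55.9%, 58.3%, 62.5% and 51.6%. The interquartile range of the array was also higher in ramet 1 in all 4 clones, and whether the ramet number marks something shared between clones was not tested.

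**Figure D2:**
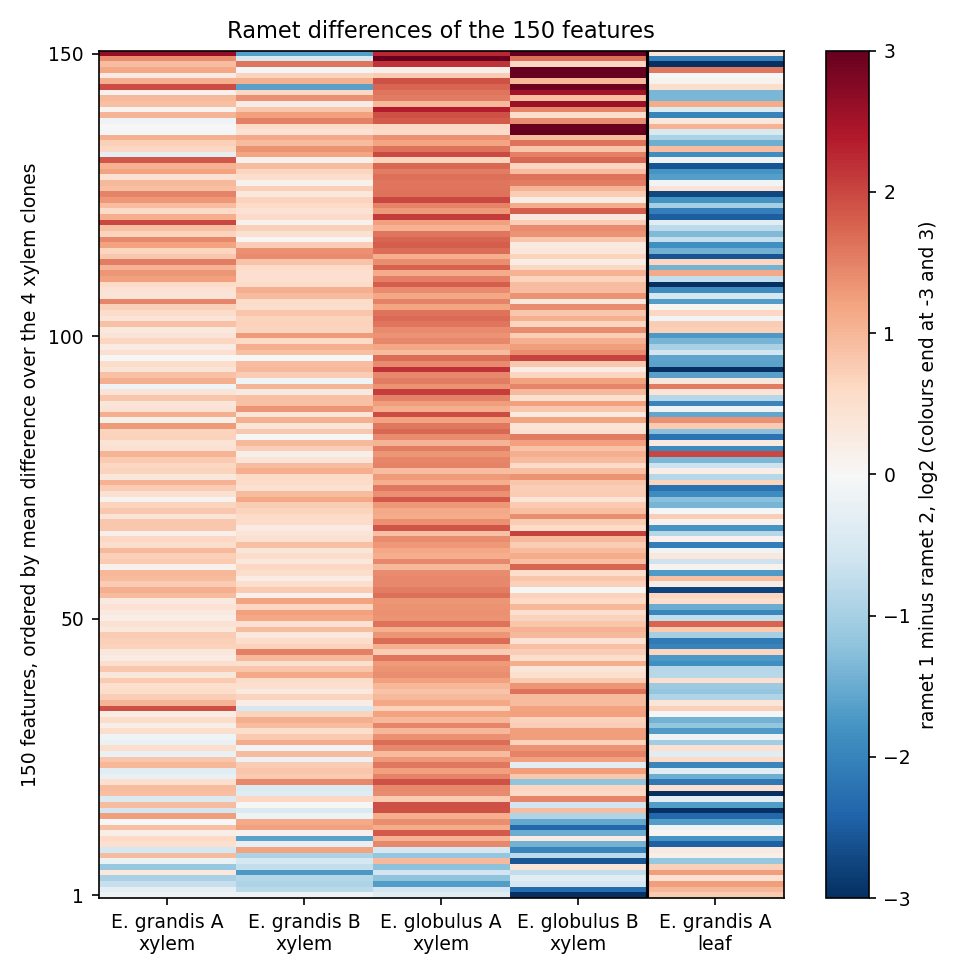
Ramet 1 minus ramet 2 in log2 units, as colour, for the 150 features (vertical axis, ordered by their mean over the 4 xylem clones) in the 4 xylem clones and, right of the black line, in leaf of E. grandis clone A. Red means higher in ramet 1 and colours end at -3 and 3. Red fills most of the xylem columns and 98 of the 150 leaf cells are blue.

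The balance of directions among the largest differences depended on how arrays were scaled, whereas the count sharing 1 direction changed little. When the 150 were chosen again after each array was scaled to an equal interquartile range, 58 were higher in ramet 1 and 48 in ramet 2 in all 4 clones. After quantile normalisation, which gives all arrays the same distribution, the counts were 74 and 32, and after cyclic loess, which removes trends with brightness, 102 and 7. The sum of both directions was 106, 106 and 109 of 150 in these settings, against 112 in the values as deposited. All features of that brightness had 16.4% and 21.1% in the equal-spread setting, and 18.2% and 20.3% after quantile normalisation. After cyclic loess they had 24.4% and 16.5%. Each choice was made on the size of these same differences, so nothing is read from the sharing of a direction. The original 150 stayed on the side of ramet 1, with 99 higher in ramet 1 and 4 in ramet 2 after scaling to equal spread. Of the features chosen again, 96 were among the original 150 with equal spread, 112 after quantile normalisation and 127 after cyclic loess. The set of 150 thus changed with the scaling, and with it the balance of directions. Beyond these settings the part of array spread in the excess of ramet 1 was not tested.

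**Figure D3:**
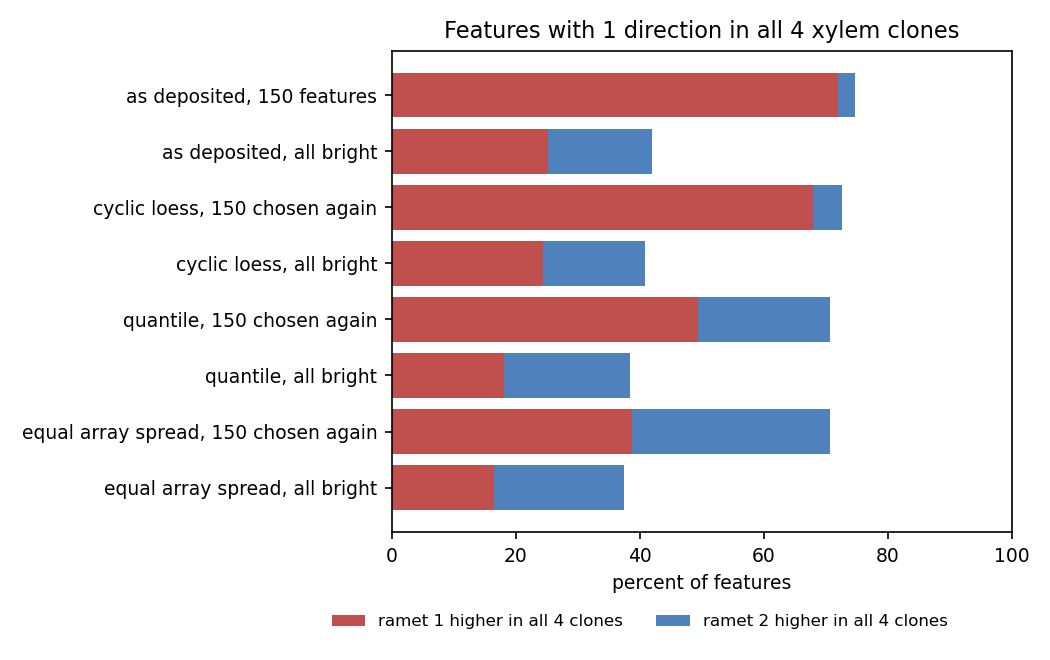
Percent of features with 1 direction in all 4 xylem clones, higher in ramet 1 (red) or in ramet 2 (blue), for the values as deposited and after 3 other scalings. In each setting the upper bar holds the 150 features with the largest ramet differences and the lower bar all features with a xylem mean of 8 or more. Red and blue parts shift with the scaling, and the upper bars together hold 112, 109, 106 and 106 of 150 features from top to bottom.

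Because the rule averaged 4 clones, each clone could be left out of the choice and then read on its own. The 150 features chosen from the 3 other clones had a median absolute difference of 0.32 log2 units in E. grandis clone A, against 0.24 for all features of that brightness. In E. grandis clone B the values were 0.48 and 0.31, in E. globulus clone A 0.97 and 0.56, and in E. globulus clone B 0.52 and 0.26. At least 2-fold differences in the clone left out were found for 12 of the 150 in E. grandis clone A, 16 in clone B, 71 in E. globulus clone A and 21 in clone B. These are shares of 8%, 10.7%, 47.3% and 14%, where all features of that brightness gave 1.63%, 1.33%, 13.2% and 2.19%. Features that differed between trees in 3 clones thus differed more often in the fourth as well, in all 4 readings. The direction in the clone left out was that of the mean of the other 3 for 113, 130, 136 and 136 of the 150, or 75.3% to 90.7%, with backgrounds of 63.8%, 79.5%, 85.6% and 73.9% in the same order of clones. The background itself was high, and it was nearest to the chosen features in E. globulus clone A and E. grandis clone B.

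The series of array numbers, known only from the numbers themselves, bears on the E. grandis clones. Both leaf arrays were of the later series, as were those of xylem ramet 1 of clone A and xylem ramet 2 of clone B. The other 2 E. grandis xylem samples and all E. globulus samples were read on the earlier one. Later minus earlier is thus ramet 1 minus ramet 2 in clone A and the reverse in clone B. Of the 150 members, 114 were higher in ramet 1 in both E. grandis clones and 7 higher in ramet 2 in both, while 16 were higher on the later series in both clones and 13 on the earlier. Over the 9978 features these shares were 37.0%, 22.8%, 18.9% and 21.3%. Within the earlier series alone, which holds both E. globulus clones whole, 133 members were higher in ramet 1 in both clones, 7 in ramet 2 in both and 10 in opposite directions. Over all 9978 features these E. globulus shares were 44.6%, 30.5% and 24.9%.

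LYPTUS00S00018680 had the most positive mean difference among features of 1 direction. Its log2 values were 10.15 in ramet 1 and 9.21 in ramet 2 of E. grandis clone A, 8.49 and 6.87 in clone B, 10.08 and 7.91 in E. globulus clone A, and 9.29 and 8.66 in clone B. Ramet 1 was higher by 0.93, 1.61, 2.17 and 0.63, with blocks of the array that did not overlap. In leaf of the same E. grandis clone A trees the order was turned, with 7.10 in ramet 1 and 10.48 in ramet 2. LYPTUS00S00014652 differed little in 3 clones and widely in 1. It was at 11.68 and 11.42 in E. grandis clone A, 10.15 and 9.48 in clone B, 10.40 and 9.63 in E. globulus clone A, and 9.98 and 6.54 in clone B. Ramet 2 of E. globulus clone B was the low array, where its blocks also lay apart at 7.26 and 5.82, and both leaf values were 9.55.

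In the direction of ramet 2, LYPTUS00S00000052 was set by a single tree. It lay between 7.65 and 9.01 on 7 xylem arrays and at 13.17 in ramet 2 of E. globulus clone B, or 9218 intensity units against 201 to 514. Its differences in the other 3 clones were -0.15, -0.15 and -0.37, small beside the -4.16 of that clone. LYPTUS00S00000591 was highest in the same tree, at 11.37 against 9.06 in ramet 1 of that clone and 7.68 to 8.79 in the other xylem trees. Both were higher in ramet 1 than in ramet 2 in leaf, by 0.78 and 1.01. A feature with this direction in every clone that rested on no single tree was LYPTUS00S00019075, the member most shifted to ramet 2 in E. globulus clone A. It was at 8.21 and 8.91 in E. grandis clone A, 8.23 and 9.15 in clone B, 7.10 and 8.78 in E. globulus clone A, and 8.48 and 8.98 in clone B.

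**Figure D4:**
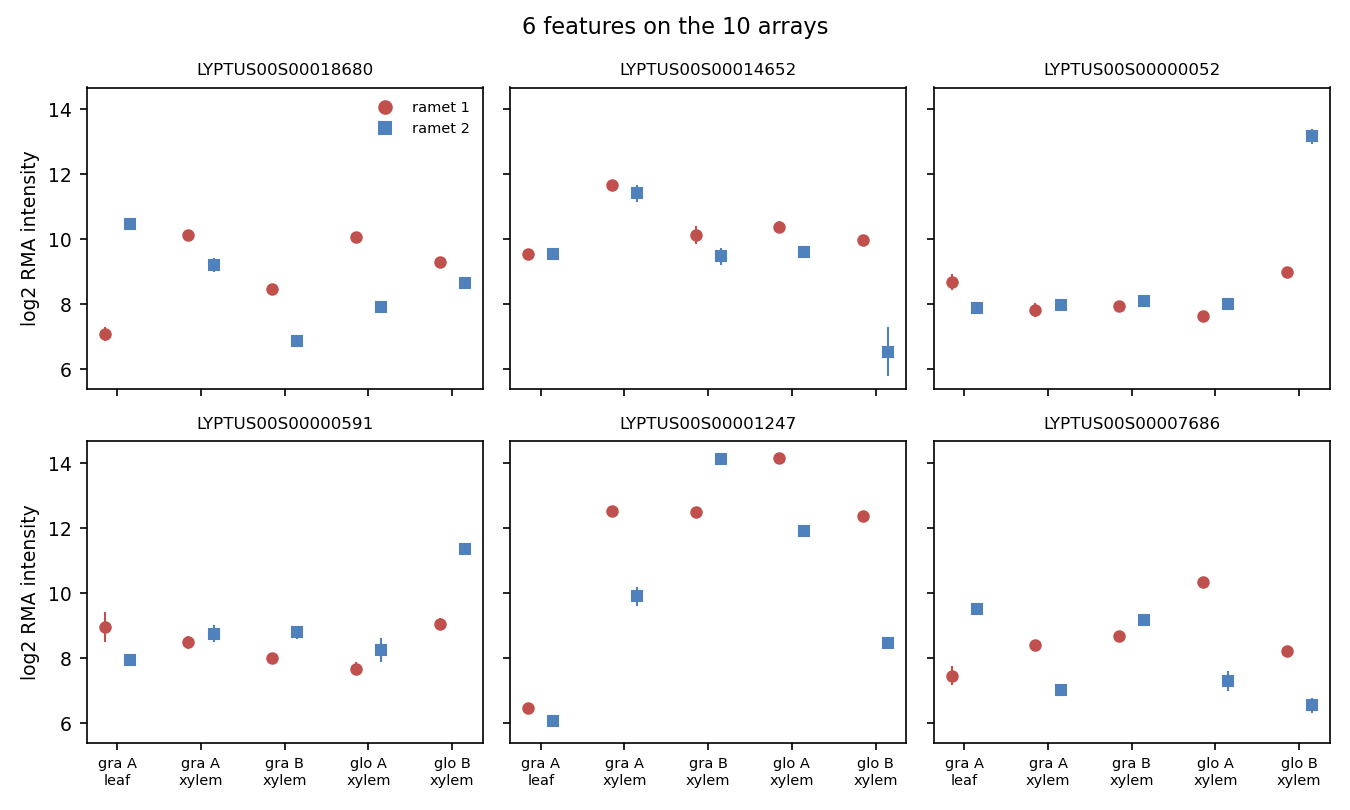
Log2 RMA intensity (vertical axis) of 6 features in the 5 groups, with ramet 1 as red circles and ramet 2 as blue squares. Each symbol is the mean of the 2 blocks of 1 array and the line joins the blocks. LYPTUS00S00000052 stands at 13.17 in ramet 2 of E. globulus clone B, and LYPTUS00S00001247 is dim in leaf and spans 8.45 to 14.16 in xylem.

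The largest members by clone showed how differently the pairs of trees behaved. LYPTUS00S00021186 was the member most shifted to ramet 2 in E. grandis clone A, at 10.24 and 11.38, and it was shifted the same way in clone B (10.55 and 11.26) and E. globulus clone A (9.83 and 11.06) but not in E. globulus clone B (10.16 and 9.78). LYPTUS00S00009725 was shifted most to ramet 2 in E. grandis clone B, at 8.18 and 9.92. It was at 9.37 and 9.07 in clone A, so the E. grandis clones had opposite directions for this feature.

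Profiles most like these were sought over the 8 xylem arrays in the whole table by Pearson correlation, which is a description of 8 arrays only. Nearest to LYPTUS00S00018680 were LYPTUS00S00009069 (r = 0.987), also among the 150, and LYPTUS00S00017459 (r = 0.982), which is too dim to be. Nearest to LYPTUS00S00000052 were LYPTUS00S00016846 (r = 0.975) and LYPTUS00S00008631 (r = 0.965), at most 8.88 and 9.44 log2 units and with means of 6.62 and 6.87, so neither could be a member.

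The technical error of these values was read from the 2 blocks, duplicate sets of probes on 1 array. It tells how well an array was read and nothing about tree or RNA sample. Both blocks gave the same direction of the ramet difference in all 4 clones for 124 of the 150 features, where 41.4% of the 9978 did. The members were chosen for the size of these differences, so nothing is read from that count. All 150 had like directions in both blocks in E. globulus clone A, 144 in clone B, 142 in E. grandis clone A and 137 in clone B. Over the 9978 features these shares were 91.3%, 74.3%, 74.1% and 79.8%. Both block values of 1 ramet lay above both of the other for 149, 137, 119 and 125 members in the same order of clones. The 9978 features had shares of 82.9%, 55.8%, 54.7% and 65.1%, and the choice by size bears on these counts too. Blocks differed more for members than for other features on most arrays, and on the xylem arrays the rule itself favours features read unevenly. The SD of the difference between blocks over the 150 features was above that over the 9978 on 9 of 10 arrays, for example 0.46 against 0.34 in ramet 2 of E. grandis clone A, and below it only in leaf ramet 2, at 0.31 against 0.33. When features were chosen on block 1 alone, their median mean absolute difference was 0.95 in that block and 0.84 in block 2, and when chosen on block 2 it was 0.97 there and 0.81 in block 1. All features of that brightness had 0.39 in either block. The larger part of the size thus recurred in the block the choice had not used, on the same arrays.

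Leaf was not used by the rule, and the 2 leaf arrays came from the trees of E. grandis clone A. The members also differed between these trees in leaf, with a median absolute difference of 1.02 log2 units against 0.51 for all 9978 features. At least 2-fold differences were found for 77 of the 150, or 51.3%, against 17.5% of the 9978. Of these 77, 66 were higher in ramet 2 and 11 in ramet 1. With 1 array per tree this has no replicate check, and leaf ramet 1 was also the least even array, with an SD between blocks of 0.65 over the members against 0.27 to 0.46 on the others. Both block values of 1 leaf ramet lay above both of the other for 128 of the 150, or 85.3%, against 66.9% of the 9978.

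The direction in leaf was mostly opposite to that in xylem, but no more so than for other features. It was opposite to the mean xylem difference for 105 of the 150, or 70.0%, where 67.9% of the 9978 features had the opposite direction. In the xylem of the same 2 trees, 54 members had the direction of leaf, or 36%, against 36.8%. A member higher in xylem of tree 1 was thus mostly lower in leaf of tree 1, as was common for all bright features, and the array spread was also turned between the tissues. Among the 9978 features, 1154 were at least 2-fold higher in leaf ramet 2 and 590 in leaf ramet 1, also with more in ramet 2 but less one-sided than the 66 and 11 of the members. For the 2516 features higher in ramet 1 in all 4 xylem clones, the same split was 614 and 79. For the 108 such members it was 50 and 5. Features with the main xylem direction of the members were thus split about as unevenly as the members. Differences between these splits were not tested.

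The member with the widest leaf difference was LYPTUS00S00006631, at 8.82 in leaf ramet 1 and 13.31 in leaf ramet 2. Its xylem values ran only from 8.17 to 10.10. The leaf of ramet 2 thus lay above all other 9 arrays. LYPTUS00S00009100 was the member most shifted to ramet 1 in leaf, at 8.98 and 6.96. Its mean was also higher in ramet 1 in all 4 xylem clones. It was at 13.15 and 12.14 in E. grandis clone A, 12.08 and 10.77 in E. globulus clone A, and 11.50 and 10.41 in clone B. In E. grandis clone B it was at 12.11 and 11.92, a small difference with overlapping blocks (11.95 and 12.26 against 11.70 and 12.14).

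The tissue comparison was not free of the rule, which asked for a xylem mean of 8 or more and so favoured features bright in xylem, among the 9978 features as among the members. Of the 150, 71 were higher in xylem and 3 higher in leaf of E. grandis clone A by limma's moderated test at an adjusted p under 0.05, or 47.3% and 2.0%. Among the 9978 features 24.6% were higher in xylem and 8.45% in leaf, in all 33.0%, and over all 21413 features 25.1% differed. The median difference of leaf from xylem was -1.71 log2 units over the members and -0.20 over the 9978, and it was negative for 127 of the 150. The spread between ramets is the error of this test and the members were chosen for it, with a median standard error of 0.57 against 0.33. Both leaf arrays were of the later array series, as was xylem ramet 1 of clone A but not xylem ramet 2. With the array series fitted as a block, 59 members were called. Leaf and xylem of 1 tree were also fitted as pairs, by the ramet number as a replicate block, with 75 members called. Without E. grandis clone A xylem ramet 1 there were 49, and no other array moved the count by over 1.5 times.

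LYPTUS00S00018493 had log2 values of 5.57 and 5.26 in leaf and 11.73 and 11.85 in xylem of E. grandis clone A. LYPTUS00S00010327 had 6.51 and 6.58 in leaf and 13.37 and 12.40 in xylem. Both were dim in leaf and bright on all 8 xylem arrays, the lowest of which were 8.19 and 9.89. In limma the first was lower in leaf, with a log2 difference of -6.38 (SE 0.63, adjusted p 1.46e-05). The second had -6.34 (SE 0.56, limma adjusted p 6.42e-06). LYPTUS00S00003280 was the reverse, at 11.24 and 14.58 in leaf against 6.39 and 6.94 in xylem of clone A, a difference of 6.25 (SE 0.87, adjusted p 0.000214 in limma). In the xylem of E. globulus it was at 10.12 and 8.21 in clone A and 9.52 and 8.59 in clone B. LYPTUS00S00003655 was higher in leaf by 3.81 (SE 0.51, adjusted p 0.000151 in limma), at 13.23 and 14.07 against 10.25 and 9.42. These 4 features kept their call in all 18 alternatives other than the series table.

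**Figure D5:**
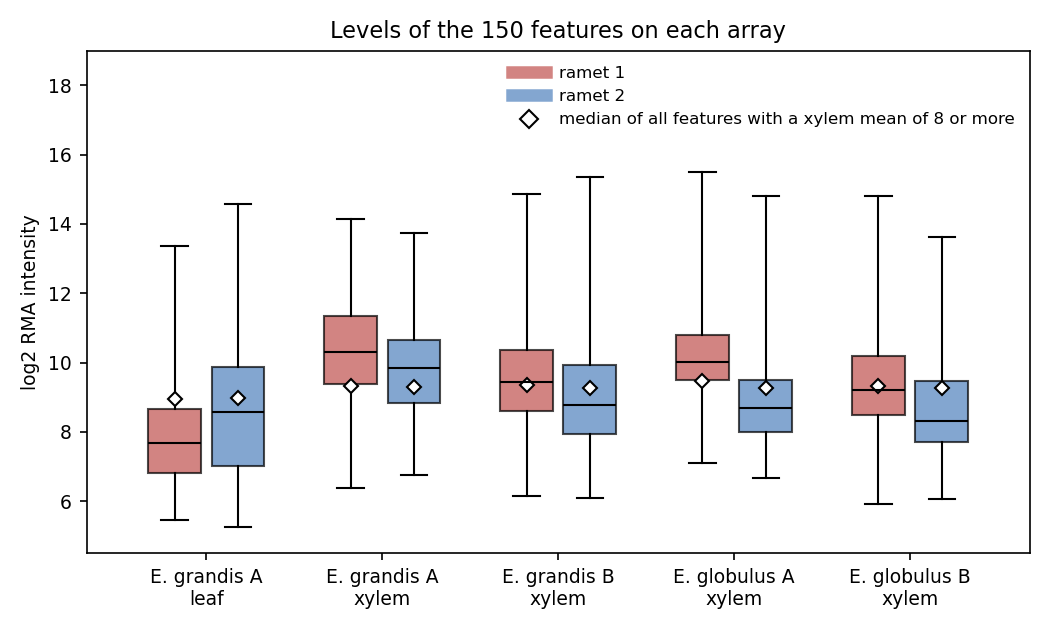
Log2 RMA intensity (vertical axis) of the 150 features on each of the 10 arrays, with ramet 1 in red and ramet 2 in blue. Boxes span the quartiles with the median as a line, whiskers reach the lowest and highest feature, and diamonds mark the median of all 9978 features with a xylem mean of 8 or more. The member medians run from 7.69 in leaf ramet 1 to 10.29 in E. grandis clone A xylem ramet 1, and diamonds lie between 8.95 and 9.47.

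The profile of differences over the members was set beside that of the 9978 features. The Pearson correlation of these differences across the 150 features was 0.40 between E. grandis clone A and E. globulus clone A, 0.34 between E. grandis clone B and E. globulus clone A, and 0.23 between the E. globulus clones. E. globulus clone B gave 0.18 with E. grandis clone A and 0.03 with clone B, and the E. grandis clones gave -0.16 with each other. Over the 9978 features the same 6 correlations, in that order, were 0.43, 0.69, 0.55, 0.17, 0.47 and 0.17. Features are not independent replicates, and the rule chose them on these differences, so these are descriptions only.

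Levels differed between clones as well as ramets. The median over the members was 10.29 and 9.83 in ramets 1 and 2 of E. grandis clone A, 9.44 and 8.77 in clone B, 10.01 and 8.70 in E. globulus clone A, and 9.20 and 8.32 in clone B. Both trees of E. grandis clone A lay above both of clone B, while the trees of the E. globulus clones overlapped. Of the sum of squares of the members over the 8 xylem arrays, 24.0% went with the ramet number common to all clones and 12.6% with ramets otherwise, against 14.6% and 10.8% over the 9978 features. Species took 29.0% and clones within a species 34.4%, against 42.4% and 32.2% over the 9978. The members were chosen for large ramet differences on these same arrays, which raises their ramet shares and so bears on the other shares. Nothing about the members is therefore read from their distance to the background. The term of the ramet number also holds part of the differences between single trees that are not shared between clones. The clone term rests on 2 trees per clone and also holds differences between single trees and arrays.

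Tests between species and clones have the spread between ramets in their error, and the members were chosen for that spread. Their median standard error was 0.50 against 0.27 for species and 0.57 against 0.33 for clones, so nothing about the members is read from a low count. Between E. globulus and E. grandis xylem, 6 of the 150 were higher in E. grandis and 0 higher in E. globulus by limma, in a fit that took clones as random blocks, with 34 at an unadjusted p under 0.05. Over the 9978 features 2.88% were higher in E. grandis and 3.63% in E. globulus, in all 6.5%, so the 4.0% of members is near the background, and over all features it was 4.22%. For E. globulus clone A, the count was 0 when ramet 2 was left out and 23 when ramet 1 was, and for E. grandis clone B it was 13 and 2. It was 10 and 11 without ramets 1 and 2 of E. globulus clone B, 1 when the array series was fitted as a block, 3 within the earlier series, and 11 with the ramet number as a replicate block. LYPTUS00S00010250 lay between 11.66 and 12.17 in E. grandis xylem and between 7.62 and 9.93 in E. globulus xylem, a difference of -3.14 (SE 0.47, adjusted p 0.0062 in limma). It lost its call only without E. globulus clone A ramet 2 (limma adjusted p 0.0718, range 0.000978 to 0.0718 over 16 alternatives). LYPTUS00S00006040 lay between 12.11 and 13.83 in E. grandis and 8.90 and 11.87 in E. globulus, a difference of -2.99 (SE 0.67, adjusted p 0.0331 in limma). It lost its call in 6 of 16 alternatives, with adjusted p-values from 0.00379 to 0.215 in limma.

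Between the E. grandis clones, 4 of the 150 were higher in clone A and 0 higher in clone B in limma, or 2.67%, with 48 at an unadjusted p under 0.05. The background was 0.762% higher in clone A and 1.18% in clone B, in all 1.94% of the 9978 features and 1.33% of all. The sign was lopsided before any test, with 120 members lower in clone B and a median difference of -0.79 against 0.06 for the 9978. The share of the 9978 lower in clone B is not given here, so nothing about the members is read from this sign. The count fell to 0 without E. grandis clone A ramet 1, clone A ramet 2 or clone B ramet 2, and to 1 without clone B ramet 1. With the ramet number as a replicate block it was 12. It was 10 without either leaf array, 8 without either array of E. globulus clone A, 0 within the earlier series and 7 within the later. LYPTUS00S00013223 was at 10.76 and 10.16 in clone A and 6.14 and 7.74 in clone B, a difference of -3.52 (SE 0.61, adjusted p 0.0185 in limma). Its blocks disagreed in ramet 2 of clone B, at 6.32 and 9.16, and on block 2 alone it lost its call. LYPTUS00S00016910 was at 12.17 and 11.54 in clone A and 9.43 and 8.09 in clone B, a difference of -3.09 (SE 0.58, adjusted p 0.0269 in limma). Each lost its call without any 1 of these 4 arrays, and over 19 alternatives the limma adjusted p ran from 0.00301 to 0.155 for the first and from 0.000707 to 0.485 for the second.

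Between the E. globulus clones 0 of the 150 differed in limma, with 15 at an unadjusted p under 0.05, and the background was 0.02% of the 9978 features and 0.0234% of all. Clone B was lower for 136 of the 150, with a median difference of -0.51 against -0.09 for the 9978. By array, clone A ramet 1 lay above ramets 1 and 2 of clone B for 133 and 142 members. Clone A ramet 2 lay above them for 21 and 106. The members were chosen for ramet differences on these arrays, and the share of the 9978 lower in clone B is not given here. Nothing about the members is therefore read from this sign. Without E. globulus clone B ramet 1 the count was 3.

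By the number in their IDs, 99 of the 150 members fell in the lowest 5 of 10 equal classes, or 66%, against 60.5% of the 9978 features. Over the 10 classes the members made up 0.483% to 2.45% of the features of that brightness. Every class held members.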

How the data were processed

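The authors deposited, for each array, RMA intensities on a linear scale per feature and block, per the file headers. RMA is named in the submitters' processing notes, with no version, and nothing states whether the arrays were normalised jointly. Each intensity was put on the log2 scale and the means of the 2 blocks were used, with no filter in the tests and no further normalisation. Alternatives were quantile normalisation, equal interquartile range, cyclic loess, single blocks, other limits of the choice, each array left out, the ramet number or array series as a block, and the deposited series table, which holds the linear block mean times 10000 (equal to within 0.001), with column medians from 221 to 237 after division. How its columns came to be named is unknown.

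Features were chosen and described in Python 3.11.15 with pandas 2.3.3. Tests used limma 3.58.1 in R 4.3.3, with 1 mean per group over all 10 arrays, or, for species, clone as a random block (correlation 0.219) over the 8 xylem arrays. P-values were Benjamini-Hochberg adjusted over all 21413 features at 0.05. The fits were also run on simulated data without differences between clones, which cannot tell how the species fit handles clones. With 2 arrays per group, the number of arrays limits the precision. Leaf and xylem were paired by tree, per the labels, and the leaf and xylem ramet differences had r = -0.354 across all features. The members and all rules were chosen with earlier results of these data known. Named features are the 2 members with the most positive and 2 with the most negative mean difference of 1 direction, the extreme member of each direction in each clone and in leaf, and the 2 extreme called members in each direction of each limma comparison. Planned gene lists and tissue markers were not used, for want of gene names.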

Additional observations from a re-analysis of the deposited data

Results flagged for a closer look

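Dixon's test at the 95% level, which picks about 1 in 20 groups by chance, was applied to 42 sets of 4 to 10 arrays. It picked out 2. LYPTUS00S00010327 was at 13.37 in xylem of E. grandis clone A ramet 1, against 12.34 to 12.47 in the other 3 E. grandis xylem trees. The SD of the difference between blocks over the 150 features was 0.654 in leaf ramet 1, against 0.268 to 0.458 on the other 9 arrays.

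Opposite directions in leaf and in all 4 xylem clones were met by 3 of the 4 features named for a shared direction. This is near the share of other features. Leaf was opposite for 80 of the 112 members of 1 direction, or 71.4%. It was opposite for 71.7% of the 2516 features of that brightness higher in ramet 1 in all 4 clones. The difference between tissues was not tested. LYPTUS00S00018680 had a ramet 1 minus ramet 2 difference of -3.38 in leaf and of 0.63 to 2.17 in xylem. LYPTUS00S00000052 had 0.779 in leaf and -4.16 to -0.15 in xylem, and LYPTUS00S00000591 had 1.01 in leaf and -2.31 to -0.26 in xylem.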

How the results depend on the processing

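With 150 members chosen again under each scaling, single block, brightness minimum or the median measure, the count of 1 direction (112) ran from 98 to 114, the median size (0.92) from 0.85 to 0.97, and the count with like blocks (124), not defined for single blocks or the series table, ran from 116 to 125. The 75 largest differences gave 55 of 1 direction and the 300 largest 218. Fewer of the 150 remained with equal interquartile ranges (96), block 1 only (98), a brightness minimum of 9 (92) or the median of the 4 differences (97). Leaf had the xylem direction for 45 members, and for 27 with equal ranges. With the columns of the series table as named, 45 shared a direction, 106 had the leaf direction, the median size was 3.30, 13 members were kept, and 0 members, kept or chosen again, differed by tissue, species or clone in limma. There the differences of LYPTUS00S00010250 (1.97), LYPTUS00S00006040 (1.23), LYPTUS00S00003280 (-0.10) and LYPTUS00S00003655 (-0.16) reversed. With members chosen again, 48 differed between tissues with equal ranges, and 2 between E. grandis clones with equal ranges, quantile, loess or block 1. With members kept, block 1 gave 7 there. The ramet number as a replicate block gave 11 members for species, 12 for the E. grandis clones, 75 between tissues and 0 between E. globulus clones. This block was 1 term common to all clones, whose ramet numbers are not known to pair trees. It was therefore no pairing of leaf and xylem by tree. Blocks by array series gave 1 for species, the earlier series alone 3, and for the E. grandis clones 0 (earlier) and 7 (later). Between tissues the array series as a block gave 59. These series settings were chosen after seeing the data.

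Leaving out 1 array gave 95 to 131 members of 1 direction over the remaining clones, 130 to 144 with like blocks, 27 to 58 with the leaf direction (27 without either array of E. globulus clone B), a median size of 0.82 to 1.04, and 90 to 116 members kept. Called members ran from 49 to 89 for tissue, 0 to 23 for species, 0 to 10 for the E. grandis clones and 0 to 3 for the E. globulus clones. The causes were not tested. With 2 arrays per group, small differences cannot be seen, and background was not measured, since human control features are not marked in the files used here.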
